A study of Mus musculus with 6 samples.

Results

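The MYC, MAX and MXD network was followed at the RNA level in 3 mouse cell lines that lack clock repressors. Its members were taken by name: Myc, Mycn and Mycl (the MYC family), their shared partner Max, the repressor genes Mxd1, Mxd3, Mxd4, Mxi1 and Mnt, and Mga. All 10 were found among the 27179 genes of the count data, and 9 of them had a mean of at least 100 normalized counts (counts scaled to a common library size) and entered the test, among 11934 genes in all. Mycn, at a mean of 31.1 normalized counts, stayed below that limit.

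MYC proteins activate transcription as dimers with MAX, which bind the E-box CACGTG. MXD proteins, MNT and MGA compete for the same MAX, and their dimers occupy the same sequence as repressors, the MXD proteins and MNT by recruiting the SIN3 corepressor and MGA as part of a variant Polycomb complex (PRC1.6). The clock activator CLOCK-BMAL1 binds E-boxes of the same core sequence, and CRY2 promotes the turnover of MYC protein. NR1D1 and NR1D2 repress genes that carry the ROR response element.

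The 3 lines are immortalized mouse embryonic fibroblasts (MEF) of strain C57BL/6, grown in DMEM with 10% fetal bovine serum and given no treatment, and all of them are per1-/- and per2-/-. Cry/Per_KO cells are in addition cry1-/- and cry2-/-, Per/Nr1d_KO cells are nr1d1-/- and nr1d2-/-, and Cry/Per/Nr1d_KO cells carry all 6 mutations. The Cry/Per/Nr1d_KO line was made from Cry/Per_KO cells with CRISPR and lentivirus and is 1 clone, and each genotype is 1 line, so line and genotype cannot be told apart, and no line with intact clock genes was analysed here. The 2 libraries of a line were separate RNA preparations, and p-values measure the spread between such preparations, not between lines. Libraries were placed by the genotype given for them, but the names of the deposited count files exchange Cry/Per_KO and Cry/Per/Nr1d_KO, so the text speaks of Cry/Per_KO-labelled and Cry/Per/Nr1d_KO-labelled libraries and gives all 3 pairwise comparisons. Under the reading of the file names, the sign of the first comparison is turned and the second and the third change places.

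Totals ran from 53764390 to 85927236 counts per library. The libraries of a line correlated at 0.9974 to 0.9979 across genes on the log2 scale and differed by more than counting noise, with a chi-square per degree of freedom of 8.07 to 16.8. The mutated genes still gave RNA, with group means of at least 1046 normalized counts for each of the 6 in every line, and their levels differed between lines. Cry2 was at 6692 in the Cry/Per/Nr1d_KO-labelled libraries, 7803 in the Cry/Per_KO-labelled ones and 1138 in Per/Nr1d_KO cells. Cry1 was at 1711, 5401 and 1564 in the same order, Per1 at 3064, 5719 and 2243, Per2 at 4932, 6736 and 1046, Nr1d1 at 3152, 9293 and 5098, and Nr1d2 at 5193, 8135 and 5637. Cry1 and Arntl, which encodes BMAL1, are known targets of repression by NR1D1 and NR1D2, yet both were higher in the libraries labelled as keeping Nr1d1 and Nr1d2 (Cry/Per_KO) than in those labelled as lacking them (Cry/Per/Nr1d_KO), Cry1 by 1.66 ± 0.053 on the log2 scale (adjusted p = 9.6e-13) and Arntl, chosen after its values were seen, by 0.89 ± 0.058 (adjusted p = 2.4e-09). This order goes against the genotype labels and is the one that the file names give, so the labels of these 2 lines are in doubt, every difference between them has its sign only for the libraries as labelled, and it is turned if the file names hold. The study reports Cry1, Arntl, Per1, Nr1d1 and Nr1d2 as lower in Cry/Per_KO than in Cry/Per/Nr1d_KO cells. That is the order under the file names. With DESeq2 at an adjusted p under 1e-22 and over 0.81 on the log2 scale, 2531 genes were called in Per/Nr1d_KO cells against the Cry/Per_KO-labelled libraries. Against the Cry/Per/Nr1d_KO-labelled ones 1758 were. The study's own count against Cry/Per/Nr1d_KO cells is close to the first of these. By direction, 1334 of the 2531 were higher and 1197 lower, again close to the study's counts against Cry/Per/Nr1d_KO cells. In the Cry/Per_KO-labelled libraries against the Cry/Per/Nr1d_KO-labelled ones, 447 genes were called higher and 651 lower at this setting. The study has more genes higher than lower in Cry/Per_KO cells, with counts close to these 2 exchanged. This too is the order under the file names. Of 10 fibroblast markers, 9 passed the limit of 100 normalized counts, with Col1a1 at 504, 304 and 1440 RPKM (reads per kilobase of exon, scaled for library size, computed here from the counts) in the 3 lines in that order, and Thy1 was at 0 to 6.21 normalized counts. Against the Cry/Per/Nr1d_KO-labelled libraries, Per/Nr1d_KO cells had 5 of the 9 called higher (an adjusted p under 0.05 in edgeR and a difference over 0.81 on the log2 scale), 4 collagen genes and Fn1, where 11.3% of all genes tested were, and 4 lower, where 9.35% were, S100a4 (1640, 745 and 231 RPKM), Vim (499, 423 and 273), Pdgfra (19.1, 14.8 and 6.27) and Pdgfrb (46.3, 46.5 and 18.4). None of the 6 epithelial, 4 endothelial and 3 pluripotent cell markers passed it, and 1 of 4 blood cell markers did, Cd68, at 120, 151 and 267 normalized counts.

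Promoters are shown first because the network is defined by the sequence its dimers bind. RefSeq promoters of GRCm38.p6 (250 bases before to 50 after a gene's start) were at hand for 9 of the 10 members, 11 promoters in all with 3 for Mxi1, and Myc had none. The palindrome CACGTG was found in 3 of the 11, those of Max, Mxd4 and Mnt, and in 2349 of 32851 promoters overall (7.2%). Its first base lay 3 bases before the start in Max, 219 before in Mxd4 and 123 before in Mnt. These are the 3 promoters with the E-box in capitals, for Max (chr12:76962199-76962498, minus strand), Mxd4 (chr5:34187661-34187960, minus strand) and Mnt (chr11:74830674-74830973, plus strand), read 5′ to 3′ on the strand of the gene. Gene positions given with each member are of the same build.
Max: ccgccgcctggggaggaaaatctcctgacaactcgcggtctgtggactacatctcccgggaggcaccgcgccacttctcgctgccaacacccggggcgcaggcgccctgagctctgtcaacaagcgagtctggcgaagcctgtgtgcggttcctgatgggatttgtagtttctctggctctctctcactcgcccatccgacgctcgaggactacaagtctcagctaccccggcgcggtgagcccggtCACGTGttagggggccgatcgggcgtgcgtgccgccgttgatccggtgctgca
Mxd4: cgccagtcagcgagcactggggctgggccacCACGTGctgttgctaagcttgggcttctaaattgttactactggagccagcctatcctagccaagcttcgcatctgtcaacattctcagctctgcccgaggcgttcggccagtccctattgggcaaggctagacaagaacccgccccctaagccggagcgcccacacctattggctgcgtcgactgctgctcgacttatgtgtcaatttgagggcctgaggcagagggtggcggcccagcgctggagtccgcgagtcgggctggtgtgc
Mnt: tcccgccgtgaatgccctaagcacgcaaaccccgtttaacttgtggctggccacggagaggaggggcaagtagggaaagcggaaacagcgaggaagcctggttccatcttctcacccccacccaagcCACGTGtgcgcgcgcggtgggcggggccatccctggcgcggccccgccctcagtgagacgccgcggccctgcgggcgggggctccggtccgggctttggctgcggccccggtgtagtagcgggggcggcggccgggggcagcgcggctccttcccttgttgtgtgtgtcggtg

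Mycl and Mxi1 are shown because they are the tested members that passed the threshold in a comparison, and none of their windows holds the E-box. The Mycl promoter spans chr4:122995681-122995980 and the most upstream of the 3 Mxi1 promoters spans chr19:53310256-53310555, both on the plus strand.
Mycl: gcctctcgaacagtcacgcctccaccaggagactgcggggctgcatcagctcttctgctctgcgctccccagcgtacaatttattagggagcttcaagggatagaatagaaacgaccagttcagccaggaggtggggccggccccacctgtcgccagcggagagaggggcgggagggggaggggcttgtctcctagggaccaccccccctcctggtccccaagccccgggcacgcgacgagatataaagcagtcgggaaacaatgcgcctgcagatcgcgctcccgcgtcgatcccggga
Mxi1: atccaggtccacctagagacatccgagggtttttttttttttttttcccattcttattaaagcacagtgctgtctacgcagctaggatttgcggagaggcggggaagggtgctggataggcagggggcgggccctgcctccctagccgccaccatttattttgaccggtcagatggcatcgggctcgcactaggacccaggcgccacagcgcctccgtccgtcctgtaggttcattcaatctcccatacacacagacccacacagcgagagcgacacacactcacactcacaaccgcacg
The core hexamer of the ROR and NR1D response element, AGGTCA, searched on both strands, was in 0 of the 11 promoters of the members and in 5340 of 32851 overall (16.3%). A match or its absence describes these windows and says nothing of binding.

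Myc RNA was lowest in the Cry/Per_KO-labelled libraries while the other 2 lines overlapped. Myc (Entrez Gene 17869, chr15:61985341-61990361, plus strand) stood at 12354 and 12875 normalized counts in the Cry/Per/Nr1d_KO-labelled libraries, at 8377 and 8585 in the Cry/Per_KO-labelled ones, and at 12604 and 11259 in Per/Nr1d_KO cells. Both Cry/Per_KO-labelled libraries lay below the other 4. Myc was 1.49-fold lower in the Cry/Per_KO-labelled libraries than in the Cry/Per/Nr1d_KO-labelled ones (log2 fold change −0.57 ± 0.053 (SE), adjusted p = 1.2e-07 by the quasi-likelihood test of edgeR, adjusted after Benjamini-Hochberg over all genes tested), which is beyond the replicate spread. It is inside the fold limit of the study, 0.81 on the log2 scale, and a gene was called only when past both that limit and an adjusted p of 0.05. Per/Nr1d_KO cells had 1.41-fold more Myc than the Cry/Per_KO-labelled libraries (0.49 ± 0.053, adjusted p = 4.1e-07), again inside the limit, while the log2 difference from the Cry/Per/Nr1d_KO-labelled libraries was −0.08 ± 0.052 (adjusted p = 0.17) and the groups overlapped.

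The difference in Myc came with a shift of its chromosome. The median log2 fold change of 459 tested genes on chromosome 15 was −0.29 for the Cry/Per_KO-labelled libraries against the Cry/Per/Nr1d_KO-labelled ones and 0.35 for Per/Nr1d_KO cells against the Cry/Per_KO-labelled libraries. With these medians subtracted, the Myc differences were −0.28 and 0.14.

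Mycn, the family member of embryonic and neural cells, was scarce and differed most in proportion. Its raw counts were 14 and 13 in the Cry/Per/Nr1d_KO-labelled libraries, 57 and 97 in the Cry/Per_KO-labelled ones, and 0 and 1 in Per/Nr1d_KO cells, which is 12.4 and 14.4, 63.4 and 95.2, and 0 and 0.789 normalized counts. The 3 lines did not overlap, and both Per/Nr1d_KO libraries lay under the level of 3 counts, 3.8 and 2.37 normalized counts, that a count of 0 allows. The ratio between the Cry/Per_KO-labelled and Cry/Per/Nr1d_KO-labelled libraries was 6.03 (exact 95% interval 3.99 to 9.45, counting error only, from 154 and 27 counts). Relative to the single count in Per/Nr1d_KO cells, the Cry/Per/Nr1d_KO-labelled libraries held 27.4 times as much (4.52 to 1120) and the Cry/Per_KO-labelled ones 165 times (29.2 to 6570). Mycn (Entrez Gene 18109, chr12:12936093-12941836, minus strand) was not tested at the limit of 100 normalized counts. With the limit lowered to 10, which tests 14770 genes, it was called in all 3 comparisons (adjusted p = 8.1e-07, 0.00024 and 2.3e-09), where 22.4%, 26.5% and 33.8% of those genes were.

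Mycl had by far the widest range among the tested members, and it was low in Per/Nr1d_KO cells. Its normalized counts were 1077 and 1095 in the Cry/Per/Nr1d_KO-labelled libraries, 834 and 957 in the Cry/Per_KO-labelled ones, and 62.1 and 63.1 in Per/Nr1d_KO cells. No group overlapped another, and the Per/Nr1d_KO libraries were far below the other 4. Mycl (Entrez Gene 16918, chr4:122995588-123002490, plus strand) was 17.3-fold lower in Per/Nr1d_KO cells than in the Cry/Per/Nr1d_KO-labelled libraries (−4.11 ± 0.12, adjusted p = 5.4e-14) and 14.3-fold lower than in the Cry/Per_KO-labelled ones (−3.84 ± 0.12, adjusted p = 1.3e-13), and both differences were called. The step between the lines with mutated Cry genes was small, −0.28 ± 0.081 for the Cry/Per_KO-labelled libraries (adjusted p = 0.006). Mycl and Mycn are thus both lowest in Per/Nr1d_KO cells, but the highest level of Mycl was in the Cry/Per/Nr1d_KO-labelled libraries and that of Mycn in the Cry/Per_KO-labelled ones.

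Max, the partner shared by all other members, did not differ between the lines beyond the spread of the libraries. It stood at 5169 and 5522 normalized counts in the Cry/Per/Nr1d_KO-labelled libraries, 5331 and 5129 in the Cry/Per_KO-labelled ones and 5384 and 4973 in Per/Nr1d_KO cells. All 3 groups overlapped, and the log2 fold changes of −0.03, −0.05 and −0.02 (SE 0.053 each) had adjusted p of 0.61, 0.43 and 0.79. Max (Entrez Gene 17187, chr12:76937269-76962323, minus strand) lies on chromosome 12, whose 416 tested genes had a median of 0.35 in the Cry/Per_KO-labelled libraries against the Cry/Per/Nr1d_KO-labelled ones. Less that median, Max was at −0.38 there.

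**Figure D1:**
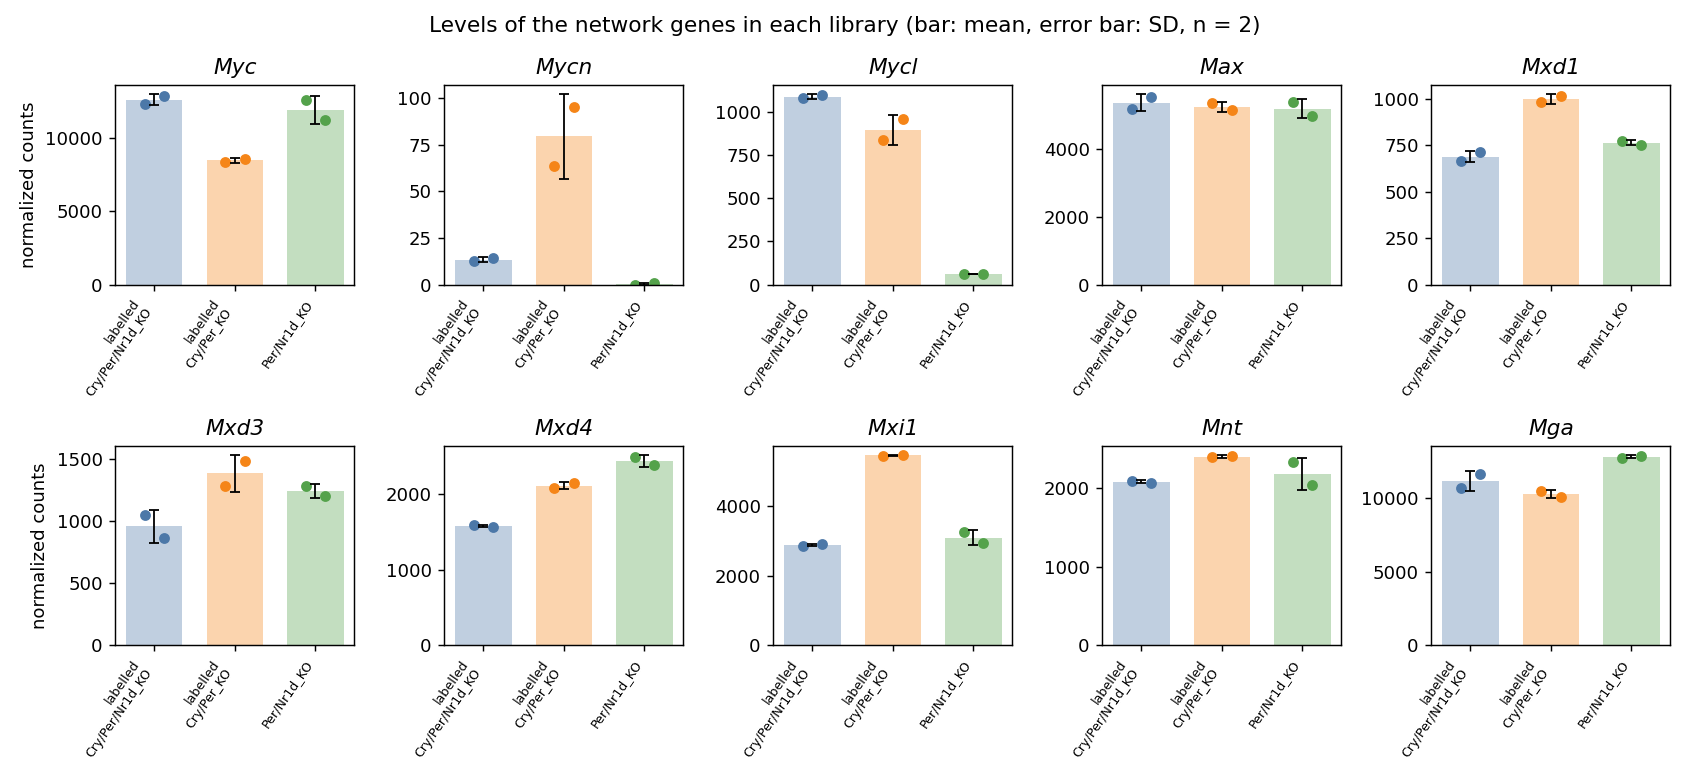
Normalized counts (vertical axes, linear, each from 0) of the 10 network genes in the 3 lines, with 1 point per library, bars for the mean and error bars for the SD (n = 2). Myc is lowest and Mxi1 highest in the Cry/Per_KO-labelled libraries, Mycl is near 63 in both Per/Nr1d_KO libraries, and Max is between 4973 and 5522 in all 6.

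The MXD genes, which encode MYC antagonists that act through SIN3, were all higher in the Cry/Per_KO-labelled libraries than in the Cry/Per/Nr1d_KO-labelled ones, and 1 of the 4, Mxi1, passed the limit on the fold, where 7.86% of all genes tested were called higher and 38.1% were higher at the adjusted p alone. Mxi1 (Entrez Gene 17859, chr19:53310128-53373293, plus strand) was at 2856 and 2891 normalized counts in the Cry/Per/Nr1d_KO-labelled libraries, 5436 and 5444 in the Cry/Per_KO-labelled ones, and 3232 and 2930 in Per/Nr1d_KO cells. The Cry/Per_KO-labelled libraries stood alone above the other 4. Mxi1 was 1.89-fold higher in them than in the Cry/Per/Nr1d_KO-labelled libraries (0.92 ± 0.053, adjusted p = 6.5e-10) and 1.77-fold lower in Per/Nr1d_KO cells than in the Cry/Per_KO-labelled libraries (−0.82 ± 0.053, adjusted p = 9.6e-10). Per/Nr1d_KO cells and the Cry/Per/Nr1d_KO-labelled libraries differed by 0.10 ± 0.054 (adjusted p = 0.12). On chromosome 19 the medians of 420 tested genes were 0.02 and 0.22 in the comparisons that called Mxi1, and less these it was at 0.91 and −1.04. The limit on the fold is close: the call in Per/Nr1d_KO cells was lost without Per/Nr1d_KO replicate 2 (−0.75), and when the limit itself was the null hypothesis (edgeR's glmTreat) the adjusted p of the calls was 0.054 and 0.61.

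Mxd1, the member named first in this family, read 667 and 712 normalized counts in the Cry/Per/Nr1d_KO-labelled libraries, 981 and 1016 in the Cry/Per_KO-labelled ones, and 774 and 753 in Per/Nr1d_KO cells. It was thus highest in the Cry/Per_KO-labelled libraries, by 1.45-fold over the Cry/Per/Nr1d_KO-labelled ones (0.54 ± 0.075, adjusted p = 1.1e-05), inside the limit. Per/Nr1d_KO cells had 1.31-fold less than the Cry/Per_KO-labelled libraries (−0.39 ± 0.075, adjusted p = 0.00019) and differed by 0.15 ± 0.077 from the Cry/Per/Nr1d_KO-labelled ones (adjusted p = 0.093). The 560 tested genes of chromosome 6, where Mxd1 lies (Entrez Gene 17119, chr6:86647044-86669234, minus strand), had medians of 0.34 and −0.41 in the 2 comparisons with the Cry/Per_KO-labelled libraries. Less these, Mxd1 was at 0.19 and 0.02.

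Mxd3, which is known from dividing cells, gave 1051 and 867 normalized counts in the Cry/Per/Nr1d_KO-labelled libraries, 1282 and 1490 in the Cry/Per_KO-labelled ones, and 1288 and 1208 in Per/Nr1d_KO cells. Its lowest libraries were the Cry/Per/Nr1d_KO-labelled ones, and the other 2 lines overlapped. It was higher than in them by 1.44-fold in the Cry/Per_KO-labelled libraries (0.53 ± 0.093, adjusted p = 0.00011) and 1.29-fold in Per/Nr1d_KO cells (0.37 ± 0.093, adjusted p = 0.0021), both inside the limit. Mxd3 (Entrez Gene 17121, chr13:55325170-55329900, minus strand) lies on chromosome 13, whose 449 tested genes had medians of 0.35 and 0.22 in these comparisons, and less these it was at 0.18 and 0.15.

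Mxd4 was highest in Per/Nr1d_KO cells, unlike the other MXD genes. Its normalized counts were 1589 and 1566 in the Cry/Per/Nr1d_KO-labelled libraries, 2078 and 2143 in the Cry/Per_KO-labelled ones, and 2492 and 2381 in Per/Nr1d_KO cells. The 3 lines did not overlap. Mxd4 (Entrez Gene 17122, chr5:34176580-34187710, minus strand) was 1.54-fold higher in Per/Nr1d_KO cells than in the Cry/Per/Nr1d_KO-labelled libraries (0.63 ± 0.058, adjusted p = 1e-07), 1.34-fold higher in the Cry/Per_KO-labelled libraries (0.42 ± 0.058, adjusted p = 1e-05), and 1.15-fold higher in Per/Nr1d_KO cells than in the latter (0.21 ± 0.057, adjusted p = 0.0037). None of these reached the limit on the fold.

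The counts of the MXD genes include stretches that other genes could share. Exons of genes on the opposite strand covered 4.43% of the exonic bases of Mxd3 (Prelid1), 6.06% of Mxd4 (Gm42846) and 2.84% of Mxi1 (Gm10197). Of all stretches of 50 bases, the read length, 5.39% in Mxd4, 2.22% in Mxd3 and 2.13% in Mxi1 also occurred in other genes, against at most 0.56% in the remaining members. The libraries were strand-specific, and the strand setting of the counting is not given in the sources used here.

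Mnt and Mga, the large and widely expressed partners of MAX, stayed inside the limit on the fold in all 3 comparisons. Mnt (Entrez Gene 17428, chr11:74830806-74845725, plus strand) ran at 2094 and 2067 normalized counts in the Cry/Per/Nr1d_KO-labelled libraries, 2392 and 2415 in the Cry/Per_KO-labelled ones, and 2330 and 2041 in Per/Nr1d_KO cells. The Cry/Per_KO-labelled libraries were highest, by 1.16-fold over the Cry/Per/Nr1d_KO-labelled ones (0.21 ± 0.065, adjusted p = 0.0089). Per/Nr1d_KO cells overlapped the Cry/Per/Nr1d_KO-labelled libraries (0.07 ± 0.065, adjusted p = 0.37) and differed by −0.14 ± 0.065 from the Cry/Per_KO-labelled ones (adjusted p = 0.054).

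Mga (Entrez Gene 29808, chr2:119872503-119970129, plus strand) was at 10680 and 11624 normalized counts in the Cry/Per/Nr1d_KO-labelled libraries, 10445 and 10041 in the Cry/Per_KO-labelled ones, and 12707 and 12849 in Per/Nr1d_KO cells. It was highest in Per/Nr1d_KO cells, 1.15-fold over the Cry/Per/Nr1d_KO-labelled libraries (0.20 ± 0.048, adjusted p = 0.0016) and 1.25-fold over the Cry/Per_KO-labelled ones (0.32 ± 0.048, adjusted p = 1.7e-05). Its difference between the Cry/Per_KO-labelled and Cry/Per/Nr1d_KO-labelled libraries, −0.12 ± 0.048 (adjusted p = 0.03), became 0.07 once the median of chromosome 2, −0.19 over 941 genes, was subtracted.

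Over the members as a set, few passed both limits. In the Cry/Per_KO-labelled libraries against the Cry/Per/Nr1d_KO-labelled ones, 1 of 9 tested members was called (Mxi1, higher), where 16.8% of all genes tested were. In Per/Nr1d_KO cells against the Cry/Per/Nr1d_KO-labelled libraries it was 1 of 9 (Mycl, lower), where 20.7% of all genes were and 9.35% were lower. Against the Cry/Per_KO-labelled libraries it was 2 of 9 (Mycl and Mxi1, both lower), where 29.0% were and 13.8% were lower. The median log2 fold change of the 9 members was 0.21, 0.10 and −0.14 in the 3 comparisons, beside 0, 0.01 and 0.03 over all genes tested. At the adjusted p alone, 8, 4 and 6 of the 9 passed, where 76.4%, 75.8% and 82.1% of all genes tested did. Libraries of the 2 lines compared did not overlap for 8, 6 and 7 of the 9, where 86.4%, 87.1% and 90.4% of all genes tested did not.

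**Figure D2:**
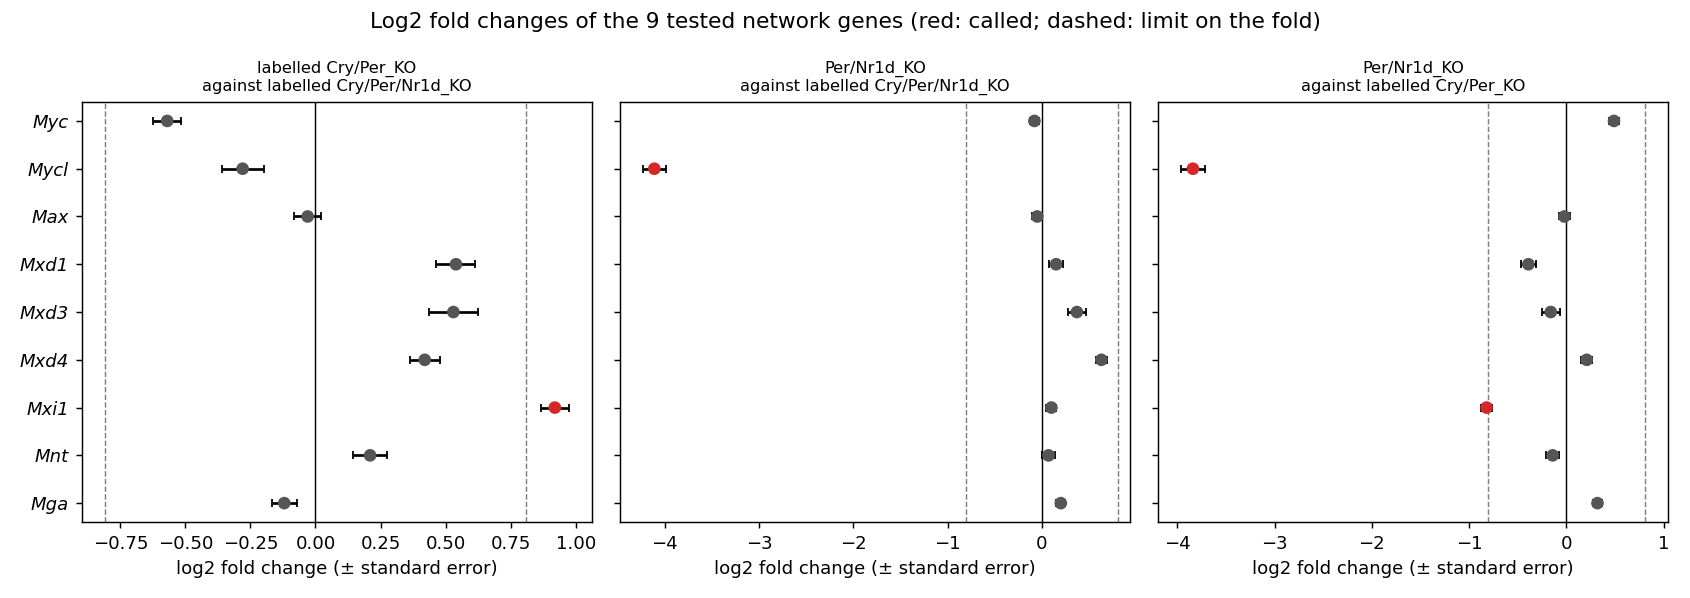
Log2 fold changes with standard errors (horizontal axes) of the 9 tested members in the 3 comparisons, each panel with its own scale. Red marks a call and dashed lines the limit on the fold (0.81). Mxi1 at 0.92 and Mycl at −4.11 and −3.84 lie beyond the lines, and Mxi1 at −0.82 lies just past one.

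Per kilobase of exon, the order of the members could be compared within a line. The length used was all exonic bases of a gene. With the longest transcript instead, Mxd4 goes from 8483 to 4627 bases and Mycl from 4038 to 3501. Mxi1 goes from 6823 to 5036 and Mnt from 4627 to 4590. The order of members close in level therefore rests on the length used. Myc led in all 3 lines, at 70.5 ± 2.06, 47.4 ± 0.819 and 66.7 ± 5.31 RPKM (mean ± SD, n = 2, lines in the order labelled Cry/Per/Nr1d_KO, labelled Cry/Per_KO, Per/Nr1d_KO), and Max came next at 22.6 ± 1.05, 22.1 ± 0.602 and 21.8 ± 1.23. In the Cry/Per/Nr1d_KO-labelled libraries these were followed by Mga at 11.0 ± 0.661 and then by Mnt at 6.83 ± 0.0642, Mxi1 at 6.39 ± 0.0544 and Mxd3 at 6.15 ± 0.833, of which the last did not differ from the others beyond its spread. Below them came Mycl at 4.08 ± 0.048, Mxd4 at 2.82 ± 0.0296, Mxd1 at 1.48 ± 0.0684 and Mycn at 0.0619 ± 0.00654. In the Cry/Per_KO-labelled libraries Mxi1 stood above Mga (12.1 ± 0.0124 against 10.1 ± 0.283), with Mxd3 at 8.88 ± 0.94 and Mnt at 7.89 ± 0.0549 behind them. In Per/Nr1d_KO cells Mxd3 at 8.0 ± 0.361, Mnt at 7.17 ± 0.669 and Mxi1 at 6.85 ± 0.476 followed Mga at 12.6 ± 0.0994, the last 2 within their spread of each other, and Mycl at 0.235 ± 0.0027 had dropped below Mxd1 at 1.64 ± 0.0329.

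The make-up of the RNA for MAX partners differed between the lines. As a share of the per-kilobase RNA of all partners, the MYC family took 67.8% and 68.7% in the Cry/Per/Nr1d_KO-labelled libraries, 53.1% and 53.3% in the Cry/Per_KO-labelled ones and 62.8% and 61.5% in Per/Nr1d_KO cells. The MXD family took 16.1% and 14.7%, 27.6% and 28.4%, and 19.2% and 19.6% in the same order. Neither family's shares overlapped between lines. The Cry/Per_KO-labelled libraries thus had the smallest MYC share and the largest MXD share, and the Cry/Per/Nr1d_KO-labelled ones the reverse. The shares are not adjusted for the shifts of whole chromosomes given above. Less chromosome medians, the first of these lines differed from the second by −0.28 for Myc, 0.19 for Mxd1 and 0.18 for Mxd3. Mxd4 was then at 0.33 and Mxi1 at 0.91. With 2 libraries a line, no exact permutation test of these shares between 2 lines can pass 0.05, and they are given as a description.

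Mnt took 6.25% ± 0.171, 8.21% ± 0.123 and 6.66% ± 0.196 of the partner RNA (SD, n = 2), and Mga 10.1% ± 0.423, 10.6% ± 0.527 and 11.8% ± 0.847. Relative to Max, the MYC family stood at 3.31 ± 0.0607, 2.32 ± 0.12 and 3.06 ± 0.0709, while all partners together stood at 4.85 ± 0.139, 4.36 ± 0.214 and 4.92 ± 0.0385. With the longest transcript as gene length these ratios fell to 2.08, 1.45 and 1.92 for the MYC family and 3.12, 2.87 and 3.20 for all partners, so their size rests on the length used. Within the MYC family, Mycl made up 5.47% ± 0.0907, 6.58% ± 0.482 and 0.353% ± 0.0321, so that nearly all MYC family RNA in Per/Nr1d_KO cells was Myc. These are shares of RNA. Protein was not measured here, and in bulk samples fewer cells of a kind and less RNA per cell cannot be told apart.

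**Figure D3:**
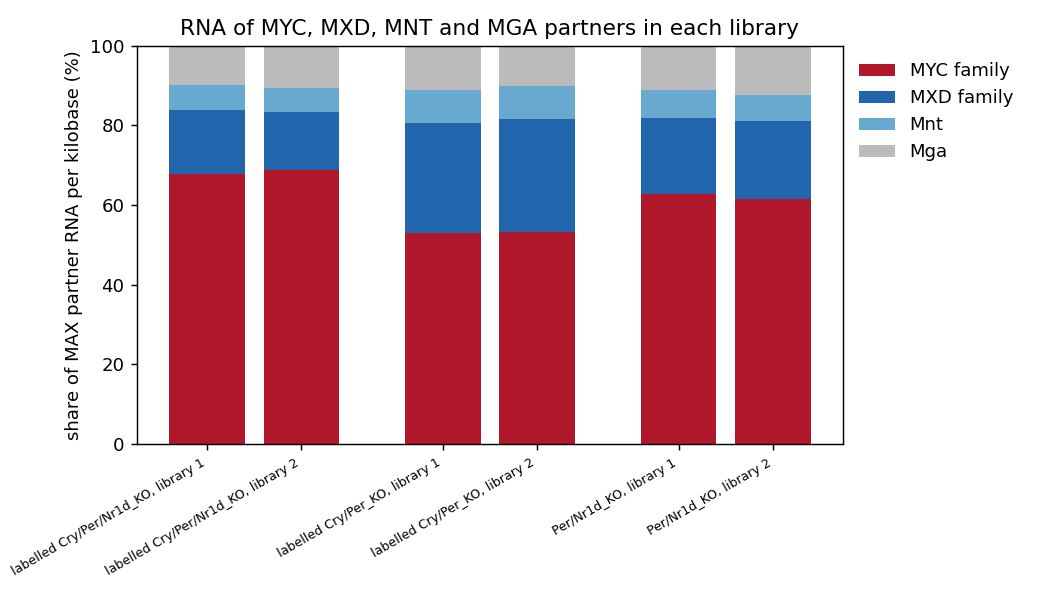
Share (%) of the per-kilobase RNA of MAX partners taken by the MYC family, the MXD family, Mnt and Mga (stacked bars, each summing to 100) in each of the 6 libraries. The MYC family share is near 53% in both Cry/Per_KO-labelled libraries and between 61.5% and 68.7% in the other 4. Shares are not adjusted for shifts of whole chromosomes.

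The parallel branch of the network, in which MLX takes the place of MAX, showed no call by edgeR or DESeq2 among its 2 tested genes, of which 1, 2 and 2 had an unadjusted p under 0.05 in the 3 comparisons, where 16.8%, 20.7% and 29.0% of all genes tested were called. Mlx read 3656 ± 88.1, 3642 ± 122 and 2693 ± 6.35 normalized counts in the 3 lines and Mlxip, the glucose-sensing MondoA, 5185 ± 45.9, 5613 ± 38.2 and 7026 ± 51.8. Mlxipl (ChREBP), at 2.53 to 20.0 normalized counts, was below the limit, and with a lower filter or none 1 of the 3 genes then tested was called, lower, in both comparisons of Per/Nr1d_KO cells. Of all genes, 13.1% and 16.8% were called lower there with the limit at 10, and 11.5% and 13.6% with no filter.

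Of the factors that set the stability of MYC protein, 0 of 21 were called in either comparison with the Cry/Per/Nr1d_KO-labelled libraries, where 16.8% and 20.7% of all genes tested were, and 1 of 21 (4.76%) in Per/Nr1d_KO cells against the Cry/Per_KO-labelled libraries, where 29.0% were. DESeq2 gave the same counts, and without replicate 1 of the Cry/Per_KO-labelled libraries the last comparison had 1 called higher and 1 lower. In the comparisons with no call, 14 and 18 of the 21 had an unadjusted p under 0.05 in edgeR. Fbxw7, the F-box protein that marks phosphorylated MYC for degradation, was at 2186 ± 45.9, 1540 ± 143 and 2637 ± 9.91 normalized counts in the 3 lines, and its difference of 0.78 ± 0.066 between Per/Nr1d_KO cells and the Cry/Per_KO-labelled libraries (adjusted p = 2.4e-08) stayed just inside the fold limit. The called gene was Usp28, a deubiquitinase that opposes Fbxw7, at 3838 and 3874 normalized counts in the Cry/Per_KO-labelled libraries and 1805 and 1898 in Per/Nr1d_KO cells (−1.06 ± 0.053, adjusted p = 4.2e-11). Less its chromosome's median, Usp28 was at −0.22. Fbxw7 falls outside the rule for named genes and was chosen after its values were seen.

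Cofactors of MYC gave 0 calls of 19 in both comparisons with the Cry/Per/Nr1d_KO-labelled libraries, by edgeR and by DESeq2, although 16 and 14 of them had an unadjusted p under 0.05 in edgeR, and 3 of 19, all higher, in Per/Nr1d_KO cells against the Cry/Per_KO-labelled libraries. Of all genes tested, 16.8% and 20.7% were called in the first 2 comparisons and 15.2% were called higher in the third, beside 15.8% of the cofactors. Kdm5b, a histone demethylase, was at 2127 and 2022 normalized counts in the Cry/Per_KO-labelled libraries and at 4399 and 4586 in Per/Nr1d_KO cells (1.12 ± 0.053, adjusted p = 2.1e-11). Actl6a, a subunit of chromatin remodelling complexes, was at 4784 and 4874 against 9755 and 10204 (1.05 ± 0.046, adjusted p = 7.2e-12), but at 0.17 less its chromosome's median. Subtraction of chromosome medians left 1 of the 3 calls.

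Subunits of the SIN3 corepressor complex were called in 0, 2 and 3 of 18 (0%, 11.1% and 16.7%), where 16.8%, 20.7% and 29.0% of all genes tested were. In the first comparison, with 0 calls by DESeq2 as well, 12 had an unadjusted p under 0.05 in edgeR. Sap30 read 1148 and 1265 normalized counts in the Cry/Per/Nr1d_KO-labelled libraries, 818 and 877 in the Cry/Per_KO-labelled ones and 2281 and 2148 in Per/Nr1d_KO cells, where it was highest (0.88 ± 0.07 and 1.38 ± 0.072 against the other lines, adjusted p = 1.6e-08 and 6.7e-11). Brms1 had the same order, with 1825 and 1697, 1534 and 1502, and 3175 and 3128 (0.84 ± 0.058 and 1.05 ± 0.059, adjusted p = 3.1e-09 and 1.5e-10). Leaving out one Cry/Per/Nr1d_KO-labelled library took 1 of these 2 genes below the limit in the comparison with that line, Sap30 at 0.81, just under it, without replicate 1 and Brms1 at 0.79 without replicate 2, and less their chromosomes' medians they were at 0.78 and 0.61 there. The glmTreat test against the limit itself left 0, 0 and 2 calls in the list. Sin3a and Sin3b, the scaffolds of the complex, were not called in any of the 3 comparisons.

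Partners of MGA in PRC1.6 were called in 3, 1 and 2 of 13 (23.1%, 7.69% and 15.4%), where 16.8%, 20.7% and 29.0% of all genes tested were. E2f6, a repressor of the E2F family, stood at 1022 and 1087 normalized counts in the Cry/Per/Nr1d_KO-labelled libraries, below 2059 and 2191 in the Cry/Per_KO-labelled ones (1.01 ± 0.067, adjusted p = 3e-09) and 2081 and 1932 in Per/Nr1d_KO cells (0.93 ± 0.067, adjusted p = 5.7e-09). Pcgf6, the Polycomb ring finger subunit, was lowest in the Cry/Per_KO-labelled libraries, at 1044 and 1061 against 2107 and 1906 (−0.93 ± 0.067, adjusted p = 6.7e-09), and Per/Nr1d_KO cells had 2297 and 2232. Tfdp2, a dimerization partner of E2F proteins, was highest in the Cry/Per_KO-labelled libraries, at 8070 and 7866 against 4406 and 4640 (0.82 ± 0.047, adjusted p = 5.7e-10), and lowest in Per/Nr1d_KO cells, at 2657 and 2659. The call of Tfdp2 between the first 2 lines was lost without replicate 1 of either line (0.78 and 0.80), and chromosome medians took it to 0.44 and E2f6 to 0.67. With glmTreat the list had 1, 0 and 2 calls.

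Genes that MYC is known to activate were mostly lower in the Cry/Per_KO-labelled libraries. Of 50 such genes (ribosome biogenesis, nucleotide and polyamine synthesis, glycolysis and cell cycle), 0 were called higher and 13 lower in the Cry/Per_KO-labelled libraries against the Cry/Per/Nr1d_KO-labelled ones, where 7.86% of all genes tested were called higher and 8.95% lower. The median of the 50 was −0.60 beside 0 over all genes tested, and at the adjusted p alone 42 were lower and 7 higher, where 38.3% and 38.1% of all genes tested were. In Per/Nr1d_KO cells 14 were called higher and 2 lower against the Cry/Per_KO-labelled libraries, with a median of 0.52 (0.03 over all genes), where 15.2% and 13.8% of all genes tested were. Against the Cry/Per/Nr1d_KO-labelled libraries the counts were 1 and 3, where 11.3% and 9.35% of all genes were, with a median of −0.11 (0.01). The list was written with earlier results of these libraries known, and the comparisons share libraries, so its counts are a description.

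Polr1b, a core subunit of RNA polymerase I, was at 5041 and 4543 normalized counts in the Cry/Per/Nr1d_KO-labelled libraries, 1933 and 1981 in the Cry/Per_KO-labelled ones and 4271 and 4505 in Per/Nr1d_KO cells. It was 2.45-fold lower in the second line than in the first (−1.29 ± 0.059, adjusted p = 4.5e-11). Slc1a5, a glutamine transporter, read 7708 and 6856, 2916 and 3077, and 5975 and 6026 (−1.28 ± 0.058, adjusted p = 4e-11, in the same comparison). Both were named as the 2 genes of the list with the lowest log2 fold change in this comparison. Their low level in the Cry/Per_KO-labelled libraries follows from that choice, and a link to Myc was not tested.

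Other targets, named by the same rule in the other comparisons, had other orders between the lines. Ccnd2, which encodes cyclin D2, was at 28778 and 28809, 44870 and 45546, and 3440 and 3198 normalized counts, 8.69-fold lower in Per/Nr1d_KO cells than in the Cry/Per/Nr1d_KO-labelled libraries (−3.12 ± 0.049, adjusted p = 4.3e-17). Tert, the catalytic subunit of telomerase, was at 167 and 152, 99.1 and 129, and 725 and 780, and was 4.71-fold higher in Per/Nr1d_KO cells (2.24 ± 0.11, adjusted p = 7.3e-11). Ncl, the nucleolar protein nucleolin, had 165994 and 176256, 91537 and 87442, and 74941 and 73637, and was 2.30-fold lower in Per/Nr1d_KO cells (−1.20 ± 0.048, adjusted p = 3.2e-12). Pkm, the glycolytic pyruvate kinase, was at 142466 and 145206 in the Cry/Per_KO-labelled libraries and 61963 and 62811 in Per/Nr1d_KO cells (−1.21 ± 0.044, adjusted p = 9.6e-13), a difference of −0.37 less its chromosome's median. After subtraction of chromosome medians the 50 targets had 0 called higher and 15 lower, 3 and 3, and 7 and 1 in the 3 comparisons, so the count for Per/Nr1d_KO cells against the Cry/Per_KO-labelled libraries went from 16 to 8. The same subtraction left 13.7%, 19.5% and 23.2% of all genes tested called, down from 29.0% in that comparison. Their medians were then −0.60, −0.15 and 0.45.

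**Figure D4:**
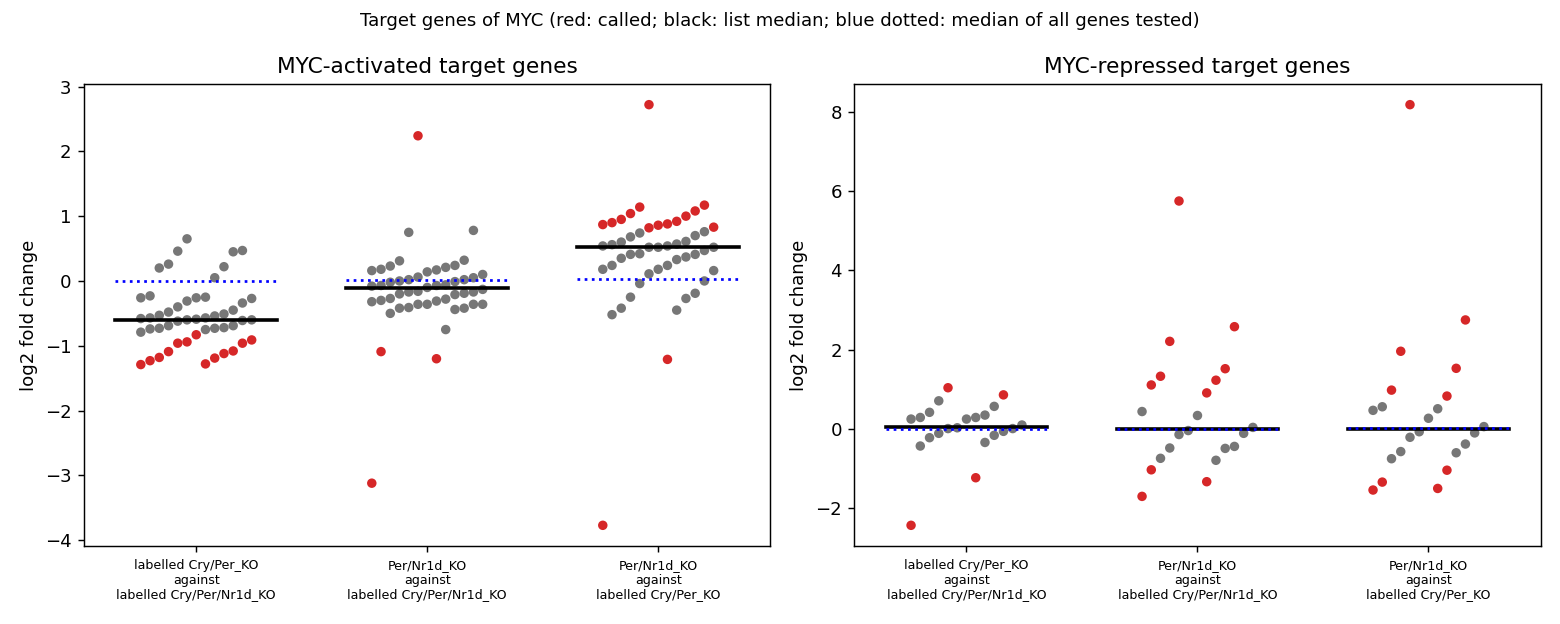
Log2 fold changes (vertical axes) of genes that MYC activates (left, 50 genes) or represses (right, 22 tested genes) in the 3 comparisons, 1 point per gene, red where called. The black line is the list's median and the dotted line that of all genes tested; the medians of the activated genes are −0.60, −0.11 and 0.52, and those of the repressed genes 0.06, 0 and 0.

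Genes that MYC is known to repress did not move one way. Of 24, 22 were tested, and 2 were called higher and 2 lower in the Cry/Per_KO-labelled libraries against the Cry/Per/Nr1d_KO-labelled ones, 8 and 3 in Per/Nr1d_KO cells against the latter, and 6 and 4 against the former. In either direction 4, 11 and 10 of the 22 were called (18.2%, 50% and 45.5%), where 16.8%, 20.7% and 29.0% of all genes tested were. Cdkn1c, an inhibitor of cyclin-dependent kinases, was at 20.4 and 20.0 normalized counts in the Cry/Per/Nr1d_KO-labelled libraries. It was at 3.34 and 3.93 in the Cry/Per_KO-labelled ones, about the level of 3 counts. In Per/Nr1d_KO cells it was at 1191 and 1012 (5.75 ± 0.16 against the first line, adjusted p = 3.1e-14). Its mean over all libraries, 375, passed the limit for testing only through Per/Nr1d_KO cells (1102, beside 20.2 and 3.63). Cdkn1c was also among the 2 genes called lower in the first comparison (−2.43 ± 0.49), from these low counts. When that comparison was fitted with its own groups alone, 21 of the listed genes were tested, with 2 called higher and 1 lower. Cebpd, a transcription factor of growth arrest and inflammation, stood at 898 and 1008, 1799 and 2114, and 6104 and 5246, higher than in the first line by 1.04 ± 0.091 in the second (adjusted p = 6.4e-08) and by 2.58 ± 0.089 in Per/Nr1d_KO cells (adjusted p = 5.7e-13). Thbs1, the matrix protein thrombospondin 1, was at 62971 and 61148, 25662 and 27146, and 180721 and 174060, so it was lowest in the Cry/Per_KO-labelled libraries. A link of these genes to Myc was not tested. Cdkn1b, another inhibitor of cyclin-dependent kinases, was at 6634 and 6761 in the Cry/Per_KO-labelled libraries and 2472 and 2273 in Per/Nr1d_KO cells (−1.50 ± 0.056, adjusted p = 1.1e-12).

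The genes nearest to Myc in pattern, by Euclidean distance of centred log2 values over the 6 libraries, were Brd1 (0.0919), Pitpna (0.0994), Tcea1 (0.102), Rab11fip1 (0.109) and Ndufa8 (0.109). Brd1, a bromodomain protein, had means of 7649, 5001 and 7047 normalized counts. Nearest to Mycl were Fam217b (0.228), Htra1 (0.38), Pcdhga2 (0.42), Tmtc1 (0.472) and Faah (0.482). Fam217b had means of 903, 792 and 53.9, and Htra1, a secreted serine protease, 19252, 20421 and 1273. These distances are over 6 libraries of 3 lines and describe likeness only.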

How the data were processed

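RNA of 3 MEF lines, 2 libraries each, was poly-A enriched, made into strand-specific libraries and read as single ends of 50 bases. STAR was used by the authors for mapping to mm10 and featureCounts for counting, and the deposited counts are whole reads per gene without normalization, by Entrez Gene ID. They also deposited tables from DESeq2 1.22.2 with log2 fold changes, standard errors and p-values, which were not used here.

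Gene symbols and positions were looked up in RefSeq's gene table for GRCm38.p6, the assembly of mm10, which matched 25275 of 27179 IDs (93.0%). Exon lengths, overlaps and 50-base stretches came from GENCODE vM21. Normalized counts are TMM-scaled to the mean effective library size, and RPKM is computed from them here.

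Testing used edgeR 4.0.16 with limma 3.58.1 under R 4.3.3. One quasi-likelihood fit held 6 libraries and 3 groups and the 11934 genes averaging 100 or more normalized counts, p-values were adjusted after Benjamini-Hochberg over these genes, and a call needed an adjusted p under 0.05 together with a log2 fold change beyond 0.81 in size. The procedure was tested on simulated data. Depth was 53764390 to 85927236 counts per library, the common biological coefficient of variation was 0.0393, and every SD rests on 2 values. Intervals and floors of 3 counts cover counting error only.

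The members and lists were chosen with earlier results of these data known. Named were all members, the mutated genes, from each list in each comparison up to 2 called genes with the highest and 2 with the lowest log2 fold change (not all of them printed), and the 5 nearest in pattern to Myc and to the member of widest range. Alternatives were DESeq2 1.42.0, size factors, the filter, the limit on the fold, glmTreat, the compared groups alone, a replicate block, each library left out, exchanged labels and the longest transcript as length. Subtraction of chromosome medians was also run. For the lists and their genes, all alternatives were added after the data were seen. The other parts of the study were not analysed here, and 1 gene of the lists is not reported here.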

Additional observations from a re-analysis of the deposited data

How the results depend on the processing

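The counts of called members were 1, 1 and 2 in the order labelled Cry/Per_KO against labelled Cry/Per/Nr1d_KO, Per/Nr1d_KO against the latter, and Per/Nr1d_KO against the former. DESeq2 at either threshold, median-of-ratios size factors, the compared groups alone and chromosome medians kept the same genes. A lower filter or none added Mycn (2, 2 and 3), no limit on the fold gave 8, 4 and 6, and glmTreat gave 0, 1 and 1 without Mxi1 (11.8%, 17.0% and 23.8% of all genes tested). Leaving out 1 library gave 1, 1 and a range of 1 to 2.

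The replicate numbers do not pair the libraries: replicate differences correlated at −0.19, −0.08 and −0.02 between lines. With the replicate number as a block the counts stayed at 1, 1 and 2.

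Labels exchanged, as in the file names, gave 1, 2 and 1. The first comparison then reads Myc 0.57, Mycl 0.28, Max 0.03, Mxd1 −0.54, Mxd3 −0.53, Mxd4 −0.42, Mxi1 −0.92, Mnt −0.21 and Mga 0.12. Per/Nr1d_KO against Cry/Per/Nr1d_KO then reads Myc 0.49, Mxd1 −0.39, Mxd3 −0.16, Mxi1 −0.82 and Mnt −0.14, and against Cry/Per_KO Myc −0.08, Mxd1 0.15, Mxd3 0.37, Mxi1 0.10 and Mnt 0.07. Subtracted chromosome medians turned Mga to 0.07 in the first comparison, Mxi1 to −0.13 in the second, and Max to 0.22 and Mxd1 to 0.02 in the third. Leaving out a library moved Max between −0.08 and 0.02, −0.10 and 0.00, and −0.07 and 0.04, and Mnt between −0.03 and 0.16 in the second comparison, none of them past the threshold.

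With the longest transcript as gene length, the MYC family's shares were 66.6%, 50.7% and 60.0% and the MXD family's 18.8%, 33.0% and 23.7% (labelled Cry/Per/Nr1d_KO, labelled Cry/Per_KO, Per/Nr1d_KO), in the same order between lines. Depth limits Mycn, with 0 and 1 counts in Per/Nr1d_KO cells.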
